A study of Mus musculus with 12 samples.

Results

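The AP-1 family examined here comprised the 7 genes Fos, Fosb, Fosl1, Fosl2, Jun, Junb and Jund, which were taken from the deposited count table by their gene symbol. All 7 had a row among the 43280 genes of the table. The libraries came from the P6 hypothalamus of male C57/Bl6 pups, 6 from controls and 6 after modified maternal separation (MMS). For MMS, pups were separated from the dam and repeatedly turned onto their backs in a daily session over several days, and tissue was taken straight after the last session. Control pups were littermates that had been assigned at random to the control group. Pups of 1 litter can therefore stand in both groups, but the labels do not tie libraries to litters. Both groups carried the same genetic background with no transgene, and the whole dissected hypothalamus was used, so fewer cells of a type and less RNA per cell cannot be told apart in these bulk samples.

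AP-1 is a dimeric transcription factor of the basic leucine zipper (bZIP) class. Fos proteins cannot pair with one another and need a Jun partner, whereas Jun proteins can pair among themselves or with Fos proteins. In the brain, Fos and Fosb are immediate early genes. Their transcription starts within minutes of neuronal firing, growth factor or stress signals, through ERK signalling, SRF and CREB at promoter elements that are already occupied, and the mRNA decays quickly through AU-rich elements. Fos mRNA and protein are therefore widely used as a sign of recent neuronal activity in the hypothalamus. Jund is the member found at a steady level in most resting cells.

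The sequences directly upstream of the annotated start are shown for Fos, the member with the largest fold change over all 12 libraries. Those of its partners Jun and Junb are shown with it. These stretches hold matches to some, but not all, of the elements through which such signals are read. They are RefSeq windows of 250 bases on GRCm38.p6, written 5′ to 3′ on the strand of the gene, with no annotated exon inside. Of the 7 members, 6 had a window, the exception being Fosl1. The windows of Fosb and Fosl2 overlap annotated exons and are not shown. Fos is given from chr12:85473640-85473889 (plus strand), Jun from chr4:95052223-95052472 (minus strand) and Junb from chr8:84978749-84978998 (minus strand). Capitals mark matches, on either strand, to the AP-1 site TGANTCA, the CRE-like site TGACNTCA, the CRE core TGACG, the TATA box TATAAA, the GC box GGGCGG, the CArG box of SRF and the MEF2 site. The CRE core lies inside any CRE-like site that has G at its free base.
Fos: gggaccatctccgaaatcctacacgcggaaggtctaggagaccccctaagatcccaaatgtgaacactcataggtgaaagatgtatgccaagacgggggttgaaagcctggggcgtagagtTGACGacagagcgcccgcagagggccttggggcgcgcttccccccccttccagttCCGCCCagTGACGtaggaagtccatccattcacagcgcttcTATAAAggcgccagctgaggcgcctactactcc
Jun: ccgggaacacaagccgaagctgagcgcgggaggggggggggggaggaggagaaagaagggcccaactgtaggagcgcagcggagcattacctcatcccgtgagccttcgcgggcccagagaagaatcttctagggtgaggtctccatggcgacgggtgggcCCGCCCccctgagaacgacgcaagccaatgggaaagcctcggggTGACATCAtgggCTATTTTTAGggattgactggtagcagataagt
Junb: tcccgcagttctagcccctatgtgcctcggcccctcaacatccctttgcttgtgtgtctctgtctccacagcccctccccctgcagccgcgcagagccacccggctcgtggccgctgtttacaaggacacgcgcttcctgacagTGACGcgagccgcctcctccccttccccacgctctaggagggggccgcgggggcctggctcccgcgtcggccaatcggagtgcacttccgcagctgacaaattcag

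Fos held the CRE core at -66 to -62 and at -129 to -125 relative to the start, a GC box at -74 to -69 and a TATA box at -33 to -28. Jun held a GC box at -89 to -84, a CRE-like site at -45 to -38 and a MEF2 site at -33 to -24. Junb held a single CRE core at -106 to -102. Over 32851 windows of the same length, 17.8% held the CRE core, 7.49% a CRE-like site, 12.4% the TATA box, 32.7% the GC box and 0.508% the MEF2 site. The AP-1 site (6.75% of windows) and the CArG box (1.47%) had no match in these 3 windows, which says only that those letters are not within this stretch.

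Total counts ranged from 3218777 to 6560620 per library. A first principal component with 30.4% of the variance set MMS 2 (57.8) and MMS 4 (46.3) apart from the other 10 libraries (-14.4 to -3.04). In MMS 2 and MMS 4 the summed level of 7 neuronal markers was 6030 and 6211 CPM against 7296 to 8606 CPM in the other 10, and that of ependymal cilia markers was 14.5 and 31.0 CPM against 69.1 to 166 CPM. Among the neuronal markers Tubb3 was low there, at 1280 and 1307 CPM against 2069 to 3461 CPM, while the other 6 neuronal markers summed to 4750 and 4904 CPM against 4548 to 5364 CPM. The summed level of 7 astrocyte markers was above all other libraries in MMS 2 and MMS 4, at 2008 and 1978 CPM against 1481 to 1860 CPM. Not every astrocyte marker followed this sum. Between the groups, 3 of the 7 were higher and 4 lower in MMS, with a median log2 fold change of -0.06. The lowest MMS levels of Gfap (42.4 CPM) and S100b (161 CPM) lay below all controls (from 69.2 and 174 CPM). By group, the neuronal sum was 7612 to 8606 CPM in controls and 6030 to 8502 CPM in MMS, and the ependymal sum 69.1 to 166 CPM and 14.5 to 163 CPM, and 5 of 9 ependymal markers (Ccdc153, Hydin, Tmem212, Dnah6 and Dnah12) were at 0 counts in at least 1 MMS library. CPM are counts per 1000000 of the library total, which was scaled by edgeR's TMM factors. Among controls, control 3 stood apart in choroid plexus markers, which summed to 1789 CPM there, mostly as Ttr. They summed to 15.1 to 45.4 CPM in the other controls and to 13.2 to 22.5 CPM in MMS. Control 3 also had the lowest control levels of Fosl2 (9.06 CPM) and Junb (11.2 CPM). The part of these shifts in the results for AP-1 genes was not tested, and values without MMS 2 and MMS 4 are given beside the results whose call or direction they change. Of 14 hypothalamic neuropeptides 13 passed the count filter, and Kiss1 had no counts. Of 7 pituitary markers 0 passed it.

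Because the reads come from the 3′ end of the transcript, a molecule gives about the same number of reads whatever its length, and members can be set side by side in CPM. In controls the most abundant member was Jund, at 118 ± 6.14 CPM (SD, n = 6), followed by Jun at 84.1 ± 7.01 CPM. Far below lay Junb at 16.3 ± 4.23 CPM, Fosl2 at 11.4 ± 1.60 CPM, Fos at 3.64 ± 1.34 CPM and Fosb at 1.32 ± 1.03 CPM. The ranges of Jund and Jun did not overlap among controls, nor did those of Jun and Junb or of Fosl2 and Fos. Those of Junb and Fosl2 overlapped, as did those of Fos and Fosb. Fosl1, which encodes Fra-1, had no counts in any of the 12 libraries. This allows a level of up to 0.457 to 0.932 CPM depending on the depth of the library (3 counts, counting error only). Unlike the levels above, these limits use the library total without TMM scaling. The 3′ end of the annotated Fosl1 span is overlapped by Ccdc85b on the opposite strand over 2767 bases. Ccdc85b had 25 counts in all. The handling of strand and shared stretches in the counting is not given, so the limits hold only if reads there were counted for Fosl1.

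**Figure D1:**
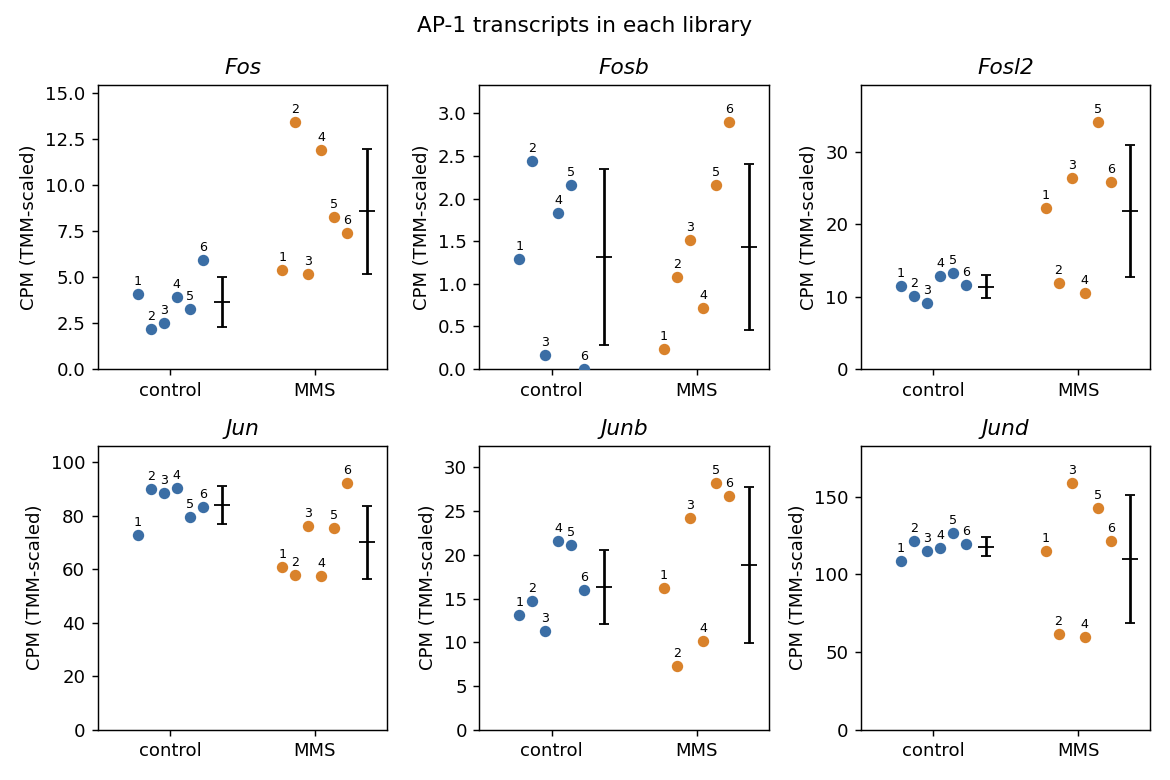
Level of each AP-1 member in TMM-scaled CPM, with 1 point per library labelled by its replicate number and the mean ± SD of the 6 libraries beside each group. Fos was highest in MMS 2 (13.4 CPM) and MMS 4 (11.9 CPM), whereas Fosl2 stood at control levels in these libraries and above all controls in the other 4 MMS libraries. Fosl1, at 0 counts in every library, is not drawn.

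In the edgeR quasi-likelihood test, 0 of 13104 genes (0%) passed a false discovery rate (FDR) of 0.05, and none of the 5 AP-1 members that passed the count filter did. The same held for these 5 members in DESeq2 and limma-voom, which placed 7 and 0 genes past the threshold over the whole table. At an unadjusted p under 0.05, Fos and Fosl2 were higher in MMS and Jun was lower, 3 of 5 members against 9.08% of all genes tested (4.68% higher and 4.4% lower). The remaining tested members, Junb and Jund, had unadjusted edgeR p-values of 0.506 and 0.618. Over the 5 tested members the median log2 fold change was 0.20, against 0.0009 over all genes. The members were chosen with earlier results of these data known.

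Fos, the prototype early gene (chr12:85473890-85477273, plus strand, 4 exons), showed the largest fold change of the family with all 12 libraries in the fit, whereas Fosl2 had the largest without MMS 2 and MMS 4. Controls measured 4.09, 2.17, 2.52, 3.90, 3.24 and 5.90 CPM in replicates 1 to 6, from 8 to 28 counts. The MMS libraries measured 5.38, 13.4, 5.15, 11.9, 8.24 and 7.41 CPM, from 17 to 67 counts. MMS 2, 4, 5 and 6 lay above all controls, while MMS 1 and MMS 3 lay below control 6 and above the other 5 controls. The log2 fold change was 1.24 (SE 0.30, 95% interval 0.62 to 1.86), with an unadjusted p of 0.000435 and an adjusted p of 0.385 in edgeR. In DESeq2 the adjusted p of Fos was 0.0528. Without MMS 2 and MMS 4, the libraries with the most Fos, the log2 fold change was 0.85 (SE 0.32) with an adjusted p of 0.961 in edgeR. With 1 surrogate variable as a covariate it was 0.88 (SE 0.31), with an edgeR adjusted p of 0.827.

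The study also measured Fos by qPCR and reported it as increased after MMS. That comparison may share animals with the sequencing, for which samples were picked at random from each group. The qPCR primers read another part of the transcript than the sequencing did. They are shown because their position separates them from the 3′ reads. The forward primer lies in exon 1 at chr12:85474110-85474130 and ends 1867 bases before the 3′ end of the 2108-base transcript. The reverse primer spans the junction of exons 1 and 2, with bases at chr12:85474178-85474180 and chr12:85474935-85474951 (GRCm38).
Fos forward primer: gggacagcctttcctactacc
Fos reverse primer: agatctgcgcaaaagtcctg

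Fosb, a second activity-induced member (chr7:19302696-19310051, minus strand), was at the limit of detection with 72 counts over the 12 libraries. Controls ranged from 0 to 2.45 CPM with a median of 1.56, and MMS libraries from 0.234 to 2.90 CPM with a median of 1.29. The groups overlapped throughout (exact permutation test, two-sided, n = 6 per group, p = 0.844). Fosb did not pass the count filter, and without the filter its log2 fold change was 0.12 with an SE of 0.61. Reads from the 3′ end do not separate full-length Fosb from its truncated splice form, delta FosB, which shares the same last exon.

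Fosl2, which encodes Fra-2 (chr5:32135801-32157842, plus strand), followed another course over the libraries. Controls lay close together, at 11.4, 10.1, 9.06, 12.8, 13.3 and 11.6 CPM in replicates 1 to 6. In MMS 1, 3, 5 and 6 Fosl2 measured 22.2, 26.3, 34.1 and 25.8 CPM, all above the highest control. In MMS 2 and MMS 4 it measured 11.8 and 10.5 CPM, inside the control range. Over all libraries the log2 fold change was 0.93 (SE 0.24, 95% interval 0.42 to 1.44), with an unadjusted p of 0.00102 and an adjusted p of 0.434 in edgeR.

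The call for Fosl2 depended on MMS 2 and MMS 4. Without them its log2 fold change was 1.26 (SE 0.18) and its adjusted p was 0.000387 in edgeR, 1 of 5 genes past the threshold (0.0373% of 13407), all higher in MMS. The others were Nr4a3, Per1, Fam107a and Igf1r, named here after their values were seen. With all libraries kept and 1 surrogate variable as a covariate, which took its largest values in MMS 2 (0.722) and MMS 4 (0.545), Fosl2 had a log2 fold change of 1.27 (SE 0.18) and an adjusted p of 0.000190 in edgeR, 1 of 4 genes past the threshold (0.0305%). The other 3 were again Nr4a3, Per1 and Fam107a. At an unadjusted p under 0.05 Fos, Fosl2 and Junb were higher in both fits, against 2.41% of all genes without MMS 2 and MMS 4 and 2.44% with the surrogate variable. The 2 libraries left out are those with the least Fosl2 among MMS pups, so this omission by itself widens the difference. They also held the lowest Junb levels, at 7.25 CPM in MMS 2 and 10.1 CPM in MMS 4. The surrogate variable came from the same counts and mostly marked these 2 libraries, with -0.18 to -0.03 in the others. The fit with it is therefore not separate support for Fosl2 or Junb. Without MMS 2 and MMS 4 the groups no longer overlapped for Fosl2, as in 1.07% of all genes (0.492% higher in MMS). Leaving out any 1 library gave log2 fold changes for Fosl2 of 0.75 to 1.09 and adjusted p-values in edgeR of 0.190 to 0.714.

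**Figure D2:**
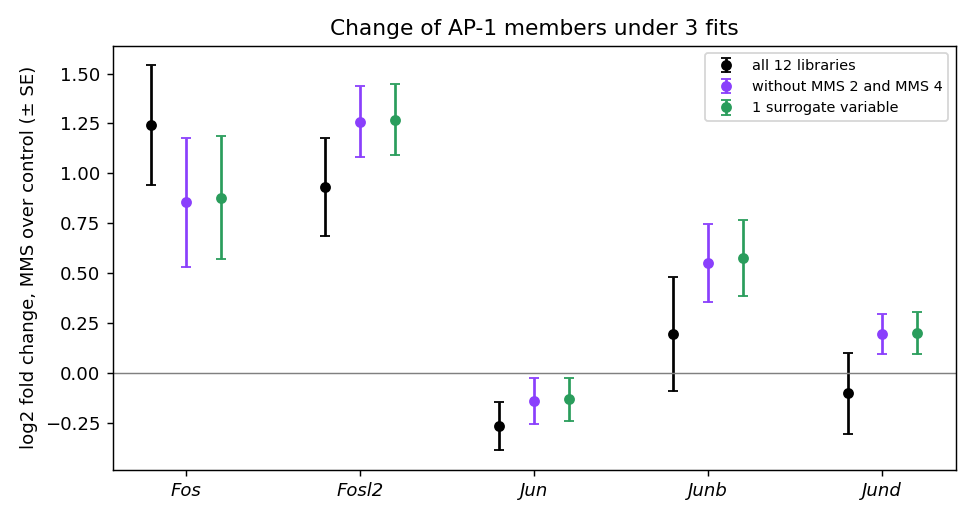
Log2 fold change (MMS over control, ± SE) of the 5 tested members with all libraries, without MMS 2 and MMS 4, and with 1 surrogate variable as a covariate in edgeR. Fosl2 moved from 0.93 to 1.26 and 1.27, Fos from 1.24 to 0.85 and 0.88, and Jund changed sign from -0.10 to 0.19 and 0.20.

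Jun, the main Jun partner of Fos in AP-1 (chr4:95049034-95052222, minus strand, 1 exon), was lower on average in MMS. It measured 72.8 to 90.5 CPM in controls (median 85.8) and 57.5 to 92.4 CPM in MMS (median 68.1). MMS 1, 2 and 4 lay below all controls, and MMS 6 lay above all of them. The log2 fold change was -0.27 (SE 0.12), with an unadjusted p of 0.0399 and an adjusted p of 0.543 in edgeR. Without MMS 2 and MMS 4 it was -0.14 (SE 0.11, edgeR adjusted p = 0.964). The antisense transcript Junos overlaps the 5′ end of Jun over 689 bases and had 44 counts in all against 4227 for Jun.

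Junb, an early-induced Jun protein that activates transcription less strongly than Jun (chr8:84974484-84978718, minus strand, 1 exon), fell on both sides of the controls within the MMS group. Controls ranged from 11.2 to 21.5 CPM with a median of 15.3. MMS 3, 5 and 6 measured 24.2, 28.2 and 26.7 CPM, above all controls, MMS 1 measured 16.2 CPM, and MMS 2 and MMS 4 measured 7.25 and 10.1 CPM, below all controls. The log2 fold change was 0.20 (SE 0.29, 95% interval -0.41 to 0.80, edgeR adjusted p = 0.837), and it ran from 0.04 without MMS 5 to 0.36 without MMS 2. Without MMS 2 and MMS 4 it was 0.55 (SE 0.20), with an unadjusted p of 0.00874 and an adjusted p of 0.961 in edgeR. The annotated gene span of Junb overlaps the 3′ end of Prdx2 on the opposite strand over 351 bases. This span is longer than the 1809-base principal transcript of Junb, and the overlap was taken from the span, not from that transcript. Prdx2 had 25414 counts against 949 for Junb, and the strand setting of the counting is not given in the sources used here, so the level of Junb is uncertain. For Prdx2 itself edgeR gave 0.08 (SE 0.09) on the log2 scale, with an adjusted p of 0.793.

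Jund (chr8:70698949-70700616, plus strand, 1 exon) had the lowest coefficient of variation among detected members in controls, 5.21%, but one of 37.4% in MMS. Controls ranged from 108 to 126 CPM. MMS 3 and MMS 5 measured 159 and 143 CPM, above all controls, MMS 1 and MMS 6 measured 115 and 121 CPM, within their range, and MMS 2 and MMS 4 measured 61.5 and 60.0 CPM, below all controls. The log2 fold change was -0.10 (SE 0.20, 95% interval -0.54 to 0.33, edgeR adjusted p = 0.882), and it was 0.19 without MMS 2 and MMS 4. Gm11175 overlaps Jund on the opposite strand and had no counts.

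**Figure D3:**
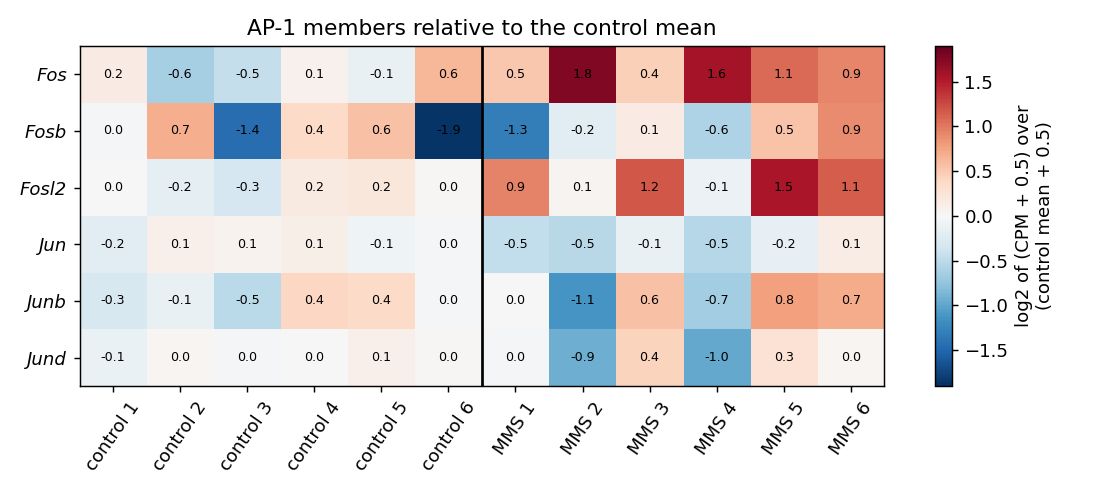
Each library's level of the 6 detected members relative to the control mean, as log2 of CPM plus 0.5. MMS 2 and MMS 4 combine the highest Fos (1.75 and 1.58) with the lowest Jund (-0.93 and -0.97) and control-level Fosl2 (0.05 and -0.11), whereas the other 4 MMS libraries show Fosl2 at 0.94 to 1.54.

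Among the 10 libraries other than MMS 2 and MMS 4, Pearson's r of log2 CPM was 0.82 between Fos and Fosl2, 0.81 between Fosl2 and Junb, 0.68 between Fos and Junb, 0.67 between Junb and Jund, 0.65 between Fosl2 and Jund and 0.35 between Fos and Jund. For Jun against the other 4 tested members it was -0.38 to 0.05. These values describe 10 libraries of 2 groups, which share their scaling and the group difference, and carry no test. They depend on which libraries are used, since over all 12, where MMS 2 and MMS 4 form a cluster of their own, the r was 0.31 between Fos and Fosl2, -0.21 between Fos and Junb and -0.60 between Fos and Jund. Over all 12 it was 0.74 between Fosl2 and Junb, 0.82 between Junb and Jund and 0.51 between Fosl2 and Jund, and -0.68 to 0.68 for Jun against the other 4.

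The makeup of the AP-1 transcripts separated the libraries of both groups. The Fos-type members (Fos, Fosb, Fosl1 and Fosl2) together took 6.96 ± 1.08% of the AP-1 counts of a control library, with a range of 5.19% to 7.96%. In MMS they took 14.1 ± 2.17%, with a range of 11.3% to 17.2% (SD, n = 6 per group), so that the groups did not overlap. The lowest MMS share was that of MMS 3 and the highest was that of MMS 2. Without MMS 2 and MMS 4 the difference was 6.12 percentage points, against 7.18 with all libraries. This sum over members is a description and was not tested. It is led by Fos and Fosl2, the members already seen to be higher in MMS. No background for such a share was computed, and the values for single genes that follow are not a like measure. In single genes, groups without overlap were seen in 0.389% of all genes tested (0.13% higher and 0.259% lower in MMS), and in 0 of the AP-1 members.

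The members that filled the share were not the same across MMS libraries. Fos made up 8.77% and 7.89% of AP-1 counts in MMS 2 and MMS 4, but 1.76% to 2.83% in the other 4 MMS libraries, close to the 0.902% to 2.50% of controls. Fosl2 made up 9.01% to 11.7% in those 4 and 7.72% and 6.95% in MMS 2 and MMS 4, in each case above the 4.00% to 5.41% of controls. The AP-1 total was 151 and 153 CPM in MMS 4 and MMS 2, 220 to 293 CPM in the other MMS libraries and 211 to 248 CPM in controls. In MMS 2 and MMS 4, then, the Fosl2 share was above that of controls while the Fosl2 level was not, and Jund and Jun levels were lower.

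**Figure D4:**
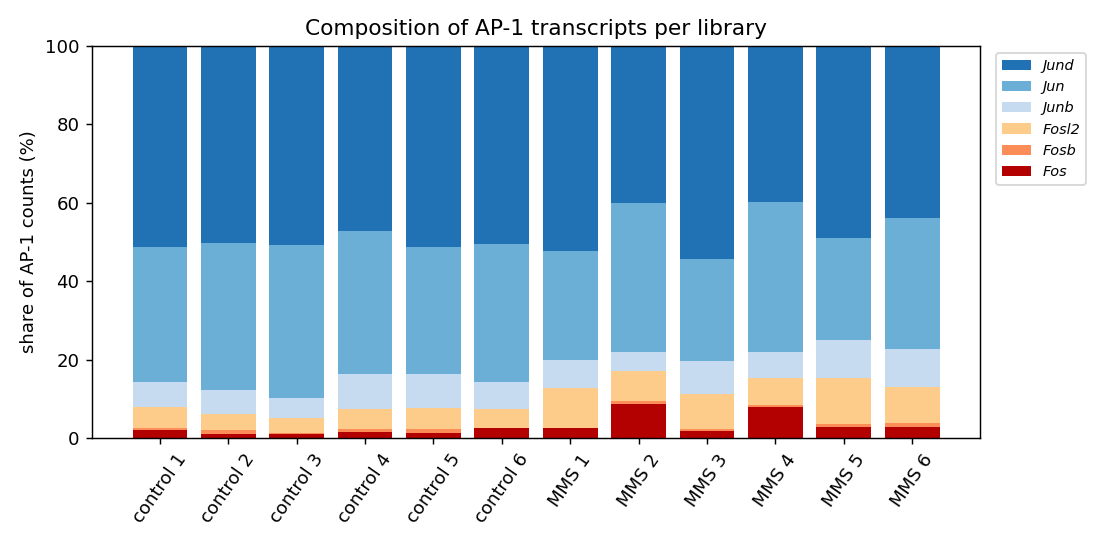
Share of the summed AP-1 counts taken by each member in each library, in percent. The Fos-type members at the base of the bars reach 5.19% to 7.96% in controls and 11.3% to 17.2% in MMS, mostly as Fosl2 in MMS 1, 3, 5 and 6 and with a larger part from Fos in MMS 2 and MMS 4.

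The order of members within a library changed accordingly. Junb was more abundant than Fosl2 in 6 of 6 control libraries, at Fosl2 to Junb ratios of 0.60 to 0.87. In MMS, Fosl2 was more abundant than Junb in 5 of 6 libraries, MMS 6 being the exception, at ratios of 0.96 to 1.63. Each order that involves Junb rests on its level, which is uncertain because its annotated gene span overlaps Prdx2. Fos was below both Fosl2 and Junb in all controls. It was above both in MMS 2 and MMS 4, and below both in the other MMS libraries. Among MMS libraries the ranges of Fosl2, Junb and Fos overlapped, as did those of Jund and Jun, although Jund exceeded Jun in each of the 12 libraries.

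Genes around AP-1 were examined in 6 lists. Of 80 genes tested on these lists, 0 passed the FDR threshold in edgeR, and at an unadjusted p under 0.05 there were 9 higher and 3 lower in MMS, against 4.68% and 4.4% of all genes tested. Nr4a3 and Per1 passed the threshold without MMS 2 and MMS 4. The lists were written with earlier results known, and they are described by counts and medians only.

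Other bZIP partners of Fos and Jun had a median log2 fold change of -0.04, with 3 of 9 tested genes higher. Atf2, which pairs with Jun at CRE-like sites such as the one in the Jun promoter, had a mean of 86.7 ± 7.35 CPM among controls and of 115 ± 33.2 CPM after MMS (SD, n = 6 per group), with a log2 fold change of 0.41 (SE 0.15). Its highest levels, 157 and 152 CPM, were those of MMS 2 and MMS 4. Atf4, the effector of the integrated stress response, measured 214 ± 23.5 and 168 ± 41.1 CPM, with 5 of 6 MMS libraries below all controls. Mafk, a small Maf protein, had a log2 fold change of -0.31 (SE 0.20). The edgeR adjusted p-values of these 3 genes were 0.543 to 0.626.

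Transcription factors that act on the Fos and Jun promoters, among them SRF, its cofactors and the CREB group, had a median of -0.13, with 5 of 17 tested genes higher. Their summed level was 596 and 601 CPM in MMS 2 and MMS 4 and 740 to 827 CPM in the other 10 libraries. The smallest p-values were those of Mef2c (log2 fold change -0.41, SE 0.16), a MADS-box factor of neurons, the CREB coactivator Crtc1 (-0.32, SE 0.17) and Atf1 (0.35, SE 0.23), with edgeR adjusted p-values of 0.543 to 0.630. Of 14 ERK and JNK pathway kinases 7 were higher and 7 lower, with a median of -0.005 and none at an unadjusted p under 0.05. Rps6ka3 and Mapk3 had log2 fold changes of 0.30 and -0.13 and edgeR adjusted p-values of 0.654 and 0.739. Of the AU-rich element binding proteins, which control decay of Fos mRNA, 1 of 4 tested was higher (median -0.04). Zfp36l1 was the first by p, at -0.26 (SE 0.14), with 5 of 6 MMS libraries below all controls, and Elavl1 and Khsrp had -0.05 and -0.04.

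Among genes widely described as AP-1 targets, 5 of 12 tested were higher, with a median of -0.16. At an unadjusted p under 0.05 there were 3, all higher in MMS, where 4.68% of all genes tested were. The metallothioneins Mt2 and Mt1, which bind zinc and also respond to glucocorticoids, had log2 fold changes of 0.60 (SE 0.16) and 0.44 (SE 0.13). Mt2 averaged 134 ± 23.3 CPM among controls and 204 ± 51.0 CPM after MMS (SD, n = 6 per group), with 4 of 6 MMS libraries above all controls. The neuropeptide Nts had 0.33 (SE 0.15). The edgeR adjusted p-values of Mt2, Mt1 and Nts were 0.434, 0.471 and 0.543.

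Other activity-induced early genes had a median of 0.02, with 14 of 24 tested genes higher, 5 at an unadjusted p under 0.05 in that direction and 1 in the other (4.68% and 4.4% of all genes tested). The orphan receptors Nr4a3 (log2 fold change 1.71, SE 0.29) and Nr4a1 (1.03, SE 0.22) had larger fold changes than Fosl2. For each of them every MMS library exceeded the highest control. Nr4a3 measured 3.26 to 6.21 CPM in controls and 8.33 to 29.0 CPM in MMS, with its lowest MMS levels in MMS 2 (8.33 CPM) and MMS 4 (9.93 CPM). Their edgeR adjusted p-values were 0.103 and 0.340, and DESeq2 placed both past the threshold. When MMS 2 and MMS 4 were left out, edgeR gave Nr4a3 a log2 fold change of 2.02 (SE 0.24) with an adjusted p of 2.88e-05. Per1, a clock gene that is also an early gene, then had 0.96 (SE 0.14) with an edgeR adjusted p of 0.000447, against 0.61 (SE 0.26) and 0.543 with all libraries. Ier5 was lower, at -0.44 (SE 0.16, edgeR adjusted p = 0.543). The summed level of the early genes was 576 and 595 CPM in MMS 2 and MMS 4, below the 657 to 853 CPM of the other 10 libraries.

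**Figure D5:**
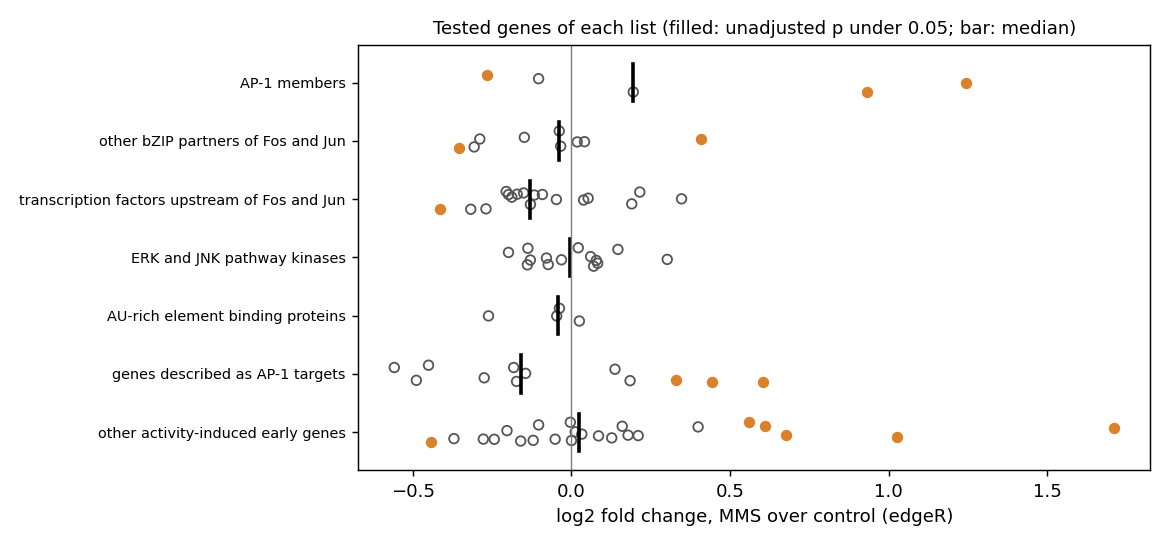
Log2 fold change (MMS over control, edgeR) of each tested gene in the AP-1 family and the 6 lists around it, with filled points for an unadjusted p under 0.05 and a bar at the median of the list. Of the genes in the 6 lists, Nr4a3 (1.71) lies to the right of Fos (1.24), and Nr4a3 and Nr4a1 (1.03) lie to the right of Fosl2 (0.93).

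The genes whose level was most like that of Fos over the 12 libraries were Gpc5, Elmo1, Timm8b, Traf4 and Sepp1, with Pearson's r of log2 CPM between 0.89 and 0.91. Among the 10 libraries without MMS 2 and MMS 4 their r with Fos was 0.77 to 0.81. Dhx40, Glul and Hsd17b7 were most like Fosl2, at r = 0.89 to 0.90, and 0.88 to 0.95 without MMS 2 and MMS 4. Synrg (0.97), Dsg2 (0.95) and Plekha8 (0.93) were closest to Jun, and Camk2b (0.95), Lamtor1 (0.94) and Jarid2 (0.94) to Junb. Fam120a (0.99), Ndufs6 (0.98) and Kat6a (0.98) were closest to Jund over the 12 libraries. Without MMS 2 and MMS 4 the r was 0.89 to 0.94 for the genes closest to Jun, 0.87 to 0.92 for those closest to Junb and 0.86 to 0.91 for those closest to Jund. Like Jund, Fam120a was low in MMS 2 and MMS 4, at 56.7 and 54.3 CPM against 117 to 138 CPM in controls. These are the highest values over 13104 tested genes in libraries that share depth scaling, and they carry no test.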

How the data were processed

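RNA from the hypothalamus was made into 3′ mRNA libraries with the QuantSeq kit and sequenced on an Ion Proton instrument. The authors aligned reads to mm10 in Torrent Suite and deposited a table of raw gene counts that were not normalized. Which tool, strand setting and annotation were used for counting is not given in the sources used here. In 27 rows the symbol had become a date (0.175% of counts), and these were kept unnamed. Groups and replicate numbers come from the sample titles. Replicate pairs differed beyond sampling noise (chi-square per degree of freedom 4.04 to 31.5 over 30 pairs), so all 12 libraries were counted. Per the study's methods litters were independent and each gave pups to both groups, and the labels do not name them, so p-values measure the spread between these samples without a litter term.

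Groups were compared in R 4.3.3 with edgeR 4.0.16 (glmQLFit and glmQLFTest), using robust dispersions, TMM scaling (trimmed means of M values), the default filter (minimum count 10, minimum total 15) and Benjamini-Hochberg adjustment over 13104 genes, two-sided. Alternatives used DESeq2 1.42.0, limma 3.58.1, sva 3.50.0, other filters and scalings, a replicate block and omitted libraries. The surrogate variable was estimated on TMM-scaled counts. Scripts were tested on simulated data. Log2 CPM used a prior count of 2. Coordinates are those of GENCODE M21 on GRCm38, the same assembly as mm10, and 91.1% of symbols were found there. Upstream sequences are from RefSeq on GRCm38.p6. Precision is limited by depth for Fos (8 to 67 counts) and Fosb (0 to 14 counts), and limits from 0 counts cover counting error only.

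The members and lists were chosen with earlier results of these data known. Genes named were the 7 members, the 3 genes of smallest p in each list, and those most like each tested member (5 for Fos, 3 for the others), of which 1 gene is not reported here.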

Additional observations from a re-analysis of the deposited data

Results flagged for a closer look

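A sample was singled out where its gap to the nearest other sample of its group, as a share of the range of the group, passed Dixon's critical value for 6 samples at the 95% level. Among 50 sets of 6 libraries, which covered the detected AP-1 members, the share of the Fos-type members and the genes named from the lists, 3 met this, and chance is expected to give about 1 in 20. Atf4 measured 261.8 CPM and Mapk3 303.4 CPM in control 5, each the highest control. Zfp36l1 measured 46.7 CPM in MMS 6, the highest of the MMS group. None of the AP-1 members, nor their Fos-type share, had such a library.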

How the results depend on the processing

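Fos, Fosl2, Jun and Junb kept their direction in all 22 alternative fits, 12 of which left out 1 library, although Junb ranged from 0.04 to 0.58. Fosl2 was past the threshold without MMS 2 and MMS 4 (adjusted p = 0.000387 in edgeR) and with 1 surrogate variable (0.000190), and in the other 8 fits with all libraries or another tool it was not, nor was any other member in any fit. Jund changed sign to 0.19 without MMS 2 and MMS 4, to 0.20 with the surrogate variable, and to 0.02 without MMS 2 alone and to 0.0315 without MMS 4 alone, with a range of -0.24 to 0.0315 on leaving out 1 library. The number of AP-1 members past the threshold was therefore 1 in those 2 fits and 0 in the rest. The number of all genes past it was 7 in DESeq2, 5 without MMS 2 and MMS 4, 4 with the surrogate variable, 1 without a count filter and 1 with the replicate block, and 0 to 1 on leaving out 1 library. In the last 3 cases the gene was Nr4a3. Among the other early genes 2 were past it in DESeq2, 2 without MMS 2 and MMS 4, 2 with the surrogate variable, 1 without a filter and 1 with the replicate block, and 0 to 1 on leaving out 1 library. Genes at an unadjusted p under 0.05 numbered 1190 with all libraries, 674 without MMS 2 and MMS 4, 669 with the surrogate variable, 2039 without a filter, and 700 to 1804 without 1 library. Members without overlap of the groups numbered 1 without MMS 2 and MMS 4 (Fosl2) and 0 to 1 on leaving out 1 library, the case of 1 being Fos without control 6. The difference in the Fos-type share ran from 6.57 to 7.75 percentage points without 1 library.

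Replicate numbers showed little pairing of the libraries: deviations of same-numbered libraries correlated at -0.05 to 0.12, and over 0.1 in 2 of 6 pairs. Only control 2 and MMS 2 were each other's closest match. Such correlations cannot tell whether same-numbered pups were littermates. With the number as a block, the log2 fold change was 1.19 for Fos and 0.86 for Fosl2, and the block changed no call of an AP-1 member. Depth limits Fosb, which could be fitted only without the count filter.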
